A study of Mus musculus with 2 samples.

Results

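The aquaporins are channel proteins that let water, and in some members glycerol, cross cell membranes, and 9 mouse aquaporin genes were followed here in the incisor of wild-type and *Sox21* KO mice. The 9 genes were chosen by name as those probes of the array that carry the gene names *Aqp1*, *Aqp2*, *Aqp3*, *Aqp4*, *Aqp5*, *Aqp7*, *Aqp8*, *Aqp9* and *Aqp11*, out of 21244 named genes with a probe, and the rule used no measured value. Of the 9, 6 were well above background on both arrays, as were 13803 of all named genes. *Aqp3*, a glycerol and water channel known from skin epithelium, was 2.47-fold higher in the *Sox21* KO incisor, *Aqp7*, its direct neighbour on chromosome 4 and a glycerol channel known from fat tissue, was lower by slightly more than 2-fold under the scaling used here though not under every other, and *Aqp1*, *Aqp2*, *Aqp4* and *Aqp11* differed by less than 2-fold.

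The data came from 2 one-colour Agilent arrays of total RNA, 1 of wild-type incisor and 1 of *Sox21* KO incisor, both from newborn mice labelled as postnatal day 0. *Sox21* encodes a transcription factor of the Sox family, and the KO line was taken from earlier work, for which the sources also describe a reporter allele with green fluorescent protein at the *Sox21* locus. The labels do not say whether the mice on these arrays carried that reporter. The series text speaks of ameloblasts, the enamel-forming cells, and of tooth germs, the methods give day 1 for the tooth germs, and none of the sources used here says how many animals went into an array. With 1 array per genotype no difference below has a replicate check, and no test was possible. In tissue RNA, fewer cells of a type and less RNA per cell cannot be told apart.

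An aquaporin subunit spans the membrane with a bundle of helices around its own pore, and the subunits assemble as tetramers. The pore is lined by asparagine-proline-alanine motifs and passes water along an osmotic gradient without any energy source. The family falls into classical water channels (here *Aqp1*, *Aqp2*, *Aqp4*, *Aqp5* and *Aqp8*), aquaglyceroporins that also conduct glycerol and urea (*Aqp3*, *Aqp7* and *Aqp9*), and unorthodox members with a divergent motif that lie in inner membranes (*Aqp11*). In the body they are known from kidney tubules, capillary walls, red blood cells, glands, skin and brain.

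The array reads each gene through probes of 60 bases, and it held 13 aquaporin probes, each present as 1 spot. *Aqp4*, *Aqp5*, *Aqp8* and *Aqp11* had 2 probes and the other 5 genes had 1. The probes of the aquaglyceroporins and of *Aqp1*, *Aqp2* and *Aqp11* are shown because each result below is a reading of that one stretch of the transcript. Only the first 30 bases are given where a stop codon stood in any sense reading frame of the probe, since the stretch may then be untranslated. The coordinates are those of the scanner files, in mouse build mm9, and the sequences run 5′ to 3′ along the transcript.

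*Aqp3* probe, first 30 bases (minus strand, chr4:41039962-41040021): atctggagctatgacccttgactgggggct

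*Aqp7* probe, first 30 bases (minus strand, chr4:40980431-40980490): gctaggtaatatccataactaacttaaatc

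*Aqp9* probe, whole (minus strand, chr9:70978252-70978311): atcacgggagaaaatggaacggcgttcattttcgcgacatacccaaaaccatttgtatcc

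*Aqp1* probe, first 30 bases (plus strand, chr6:55298480-55298539): ctgtgtatgtttctttgcaattgaatttca

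*Aqp2* probe, whole (plus strand, chr15:99412578-99413554): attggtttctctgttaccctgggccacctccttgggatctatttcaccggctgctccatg

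*Aqp11* brighter probe, first 30 bases (minus strand, chr7:104874889-104874948): ctcgagtgatgtattaaatgctgctagaaa

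*Aqp11* dimmer probe, first 30 bases (minus strand, chr7:104877482-104877541): ccgtgctttgacgaactcttctataagttt

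The *Aqp3* and *Aqp7* probes began at bases 1498 and 2140 of their transcripts, that of *Aqp1* at base 2690 and that of *Aqp9* at base 617. The *Aqp2* probe began at base 586 and covered 977 bases of the genome, more than its own length, so it crosses an exon junction. The 60 bases of the *Aqp2* and *Aqp9* probes held no stop codon in any of the 3 sense frames. The GC content ran from 30% in the *Aqp1* probe to 53.3% in the *Aqp2* probe and 1 of the *Aqp5* probes, among the probes on chromosomes other than 18. Because probes differ in composition and position, the signals of different genes were not ranked against each other, and other spots served only as a gauge of background.

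The processed signal that the scanner software gives for a spot is called the signal below, and its error is the one the software assigned to that spot. The signal includes correction beyond the local background. The wild-type *Aqp1* spot, for example, had a brightness of 4071, a local background of 27 and a signal of 4284. A normalized signal is the signal divided by the 75th percentile of its own array, which was 268 in wild-type and 276 in *Sox21* KO. A log2 ratio is the log2 of the normalized signal in *Sox21* KO minus that in wild-type, and its 95% interval was worked out from the spot errors, so it covers the reading of 1 spot on each array and not the spread between mice. Over the 298 probes of the array with repeat spots, the SD of the log2 ratio between repeats had a median of 0.09. Readings well above background made up 49.7% of the wild-type spots and 50.4% of those in *Sox21* KO, and no spot was saturated.

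The labels were checked with the targeted gene and with enamel and dentin genes. *Sox21* read 1362 in wild-type and 659 in *Sox21* KO at its brighter probe (log2 ratio −1.09) and 286 and 103 at its dimmer probe (−1.51). Both probes were thus lower in the KO and still well above background, and whether they lie inside the deleted stretch is not given in the sources used here. The tissue label was met on both arrays, where 7 of 7 ameloblast markers, among them amelogenin (*Amelx*) and ameloblastin (*Ambn*), and 5 of 5 odontoblast markers, among them *Dspp*, were well above background. The levels of ameloblast genes still differed between the arrays: 5 of 7 were lower in *Sox21* KO, 2 of them at least 2-fold (*Amtn* at −1.89 and *Klk4* at −1.05, both also picked by the study from these arrays), with a median log2 ratio of −0.62. Over all measured genes 6564 of 13803 were lower and 0.667% at least 2-fold lower.

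**Figure D1:**
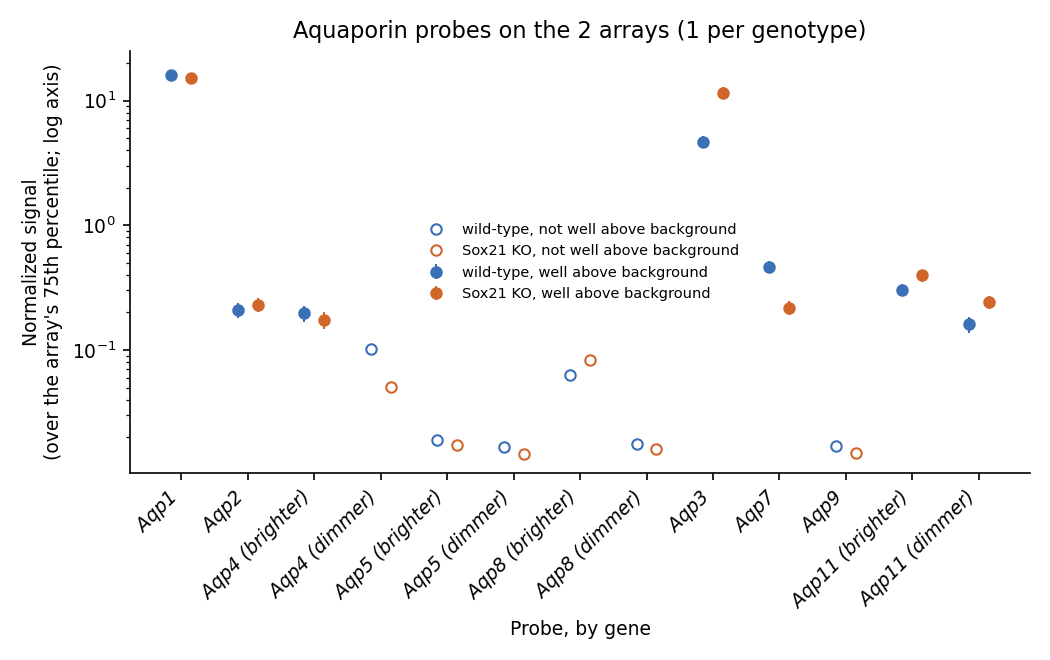
Normalized signal of the 13 aquaporin probes (log axis) on the wild-type array (blue) and the *Sox21* KO array (orange), with filled points and scanner spot errors where a probe was well above background and open points where it was not. *Aqp3* read 4.69 in wild-type and 11.6 in *Sox21* KO, *Aqp7* read 0.465 and 0.218, and 6 of the 13 probes were open on both arrays.

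The aquaglyceroporins held both of the differences past 2-fold. *Aqp3* carries water and glycerol into keratinocytes, where it sits in the membrane of basal and lower suprabasal cells of skin and oral mucosa. Its signal was 1255 ± 126 in wild-type and 3193 ± 319 in *Sox21* KO (scanner spot error), or 4.69 and 11.6 after normalization. The *Sox21* KO reading was the higher by 2.47-fold, with a log2 ratio of 1.31 and a 95% interval of 0.91 to 1.71, whose lower end was just inside 2-fold. The unsubtracted brightness of the same spot was 1348 and 3381, against a local background of 25 and 24. The 36 spots within 4 rows and columns of it had a median log2 ratio of 0.18, beside 0.01 over all measured genes. That was the highest such median among the 13 aquaporin probes, for which it ran from −0.07 to 0.18. The part of the spot's place on the array in its ratio was not tested.

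Of all 13803 genes measured on both arrays, 102 had a *Sox21* KO reading at least 2-fold above wild-type, a share of 0.739%, and *Aqp3* was 1 of the 6 measured aquaporins in that class. Bright genes rarely reach it. Of the 3282 genes with a signal from 1000 to 4000 (mean of both arrays on the log scale), 11 passed the same limit (0.335%), and the SD of their log2 ratios was 0.24. Repeat spots in the same range, from 71 probes, had a median SD of 0.06 and a highest SD of 0.14 in the log2 ratio. Repeat spots show the technical error of these 2 arrays alone and nothing of the spread between mice, and *Aqp3* was read at 1 probe. *Aqp3* is also on the list of changed genes that the study drew from these same arrays, so its place there is not independent evidence.

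*Aqp7* lets glycerol out of fat cells and is also known from capillaries, testis and kidney. Its signal was 124 ± 13.5 in wild-type and 60.1 ± 7.58 in *Sox21* KO, or 0.465 and 0.218 after normalization. The KO reading was the lower one, with a log2 ratio of −1.09 and a 95% interval of −1.56 to −0.62. The 31 spots around it had a median log2 ratio of 0.09. Both readings were well above background but dim, and the call depended on the processing: the log2 ratio was −0.996, just short of 2-fold, when each array was divided by its median, and −0.59 under the normexp background model with an offset of 50 followed by quantile normalization.

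At least 2-fold lower in *Sox21* KO were 92 of all measured genes (0.667%), and *Aqp7* was the only aquaporin among them. Dim genes reach that limit more often. Of 2324 genes with a signal from 50 to 150, 29 did so (1.25%), and the SD of the log2 ratios of those 2324 was 0.41. Repeat spots of 43 probes in that range had a median SD of 0.20 and a highest SD of 0.76. These too cover technical error alone.

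*Aqp9*, the third aquaglyceroporin, takes up glycerol in liver and is found in leukocytes. It read 4.56 in wild-type and 4.10 in *Sox21* KO. Both values were surrogates, numbers that the scanner software puts in where a spot is not distinguishable from background, so no ratio was formed. The lowest signal flagged well above background anywhere was 21.3 in wild-type and 19.5 in *Sox21* KO.

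**Figure D2:**
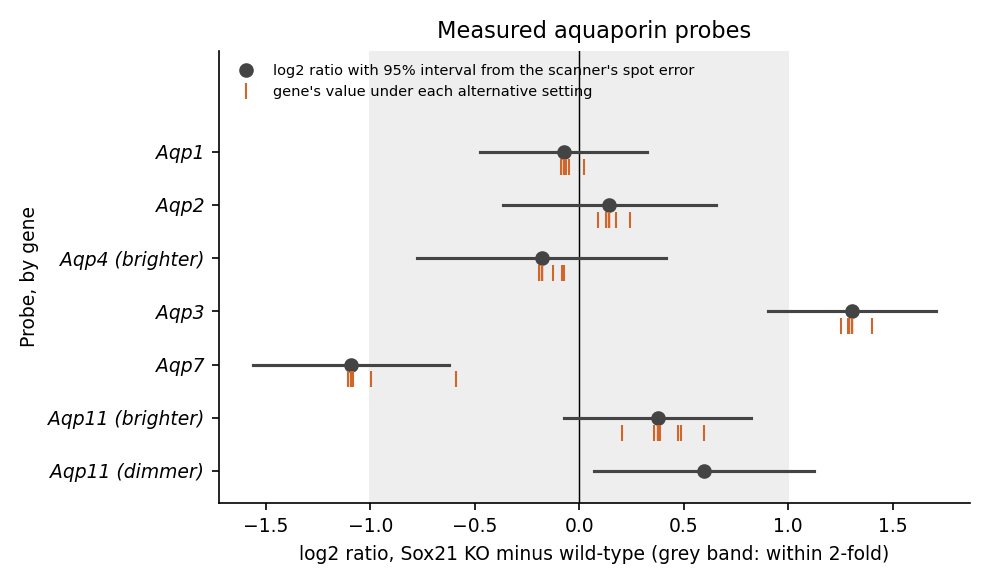
Log2 ratio (*Sox21* KO minus wild-type) of the 7 aquaporin probes well above background on both arrays, with 95% intervals from the scanner's spot error and, as orange ticks, the gene's value under each alternative setting. The ticks of *Aqp3* run from 1.25 to 1.40 and stay right of the 2-fold band, and those of *Aqp7* reach −0.59 inside it.

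*Aqp3* and *Aqp7* lie side by side on chromosome 4, with no protein-coding gene between them in the RefSeq order of build GRCm38.p6. Their probes were 59472 bases apart on mm9, and both genes are read from the minus strand. The pair thus differed in opposite directions. Of the 10 protein-coding genes that flank it, 5 on either side, 9 were measured, and their log2 ratios ran from −0.35 (*Nfx1*) to 0.19 (*B4galt1*) with a median of −0.04. None was past 2-fold. This window was drawn after the values of the pair were seen.

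The water channels differed little between the arrays where they could be read. *Aqp1*, the water channel of red blood cells and of the endothelium of small vessels, was the one with the firmest reading. Its signal was 4284 ± 428 in wild-type and 4188 ± 419 in *Sox21* KO, or 16.0 and 15.2 after normalization. The arrays differed by less than the spot error, with a log2 ratio of −0.07 and a 95% interval of −0.47 to 0.33, and the sign turned (0.02) when each array was divided by its median. At this precision a change of 2-fold in either direction would have lain outside the interval.

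*Aqp2*, the vasopressin-regulated channel of the kidney collecting duct, was dim but readable. Its signal was 56.0 ± 7.46 in wild-type and 63.7 ± 7.75 in *Sox21* KO. The log2 ratio was 0.14 with a 95% interval of −0.37 to 0.65, so the readings overlapped. Of 6 other collecting duct genes, 2 were well above background on both arrays, the sodium channel subunit *Scnn1b* and the ion transport regulator *Fxyd4*, and the vasopressin receptor gene *Avpr2* was so on neither.

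*Aqp4*, the channel of astrocyte end-feet that is also present in fast skeletal muscle, has its probes on chromosome 18. The brighter probe read 52.9 ± 7.82 in wild-type and 48.0 ± 7.2 in *Sox21* KO, a log2 ratio of −0.18 with a 95% interval of −0.77 to 0.42. The dimmer probe, 3354 bases away, read 27.1 ± 6.25 and 14.0 ± 5.21, and neither value was well above background. Both were still flagged positive and significant, with a log2 ratio of −0.996 if the filter is set aside. No difference in *Aqp4* was detectable at the brighter probe, and the dimmer one was too close to background to count.

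*Aqp5*, the channel through which salivary, tear and sweat glands secrete water, gave no reading well above background at either of its probes. They read 5.11 and 4.48 in wild-type and 4.79 and 4.04 in *Sox21* KO, all surrogate values. Of 7 salivary acinar genes, 6 likewise gave no such reading on either array, and the secretory cell transcription factor *Bhlha15* was the one measured (0.380 in wild-type and 0.152 in *Sox21* KO, normalized). *Aqp8*, a channel of gut, pancreas and testis, read 16.8 and 22.9 at its brighter probe and 4.69 and 4.39 at its dimmer probe, with none of these readings flagged well above background. The brighter probe, with spot errors of 5.35 and 5.31, was still flagged positive and significant on both arrays, and the dimmer one was a surrogate on both. *Aqp2*, *Aqp5* and a further family gene, *Aqp6*, lie next to each other on chromosome 15, and of these only *Aqp2* was readable.

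*Aqp11*, which lies in the endoplasmic reticulum and whose loss is known to give kidney cysts, was the one gene read by 2 probes on both arrays. Its brighter probe read 81.8 ± 9.48 in wild-type and 109 ± 11.8 in *Sox21* KO, a log2 ratio of 0.37 with a 95% interval of −0.07 to 0.82. Its dimmer probe, 2534 bases away, read 42.9 ± 6.21 and 66.9 ± 7.89, a log2 ratio of 0.60 with a 95% interval of 0.07 to 1.13. Both probes were higher in *Sox21* KO and neither reached 2-fold. The 2 intervals overlapped each other, and the interval of the brighter probe included 0.

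**Figure D3:**
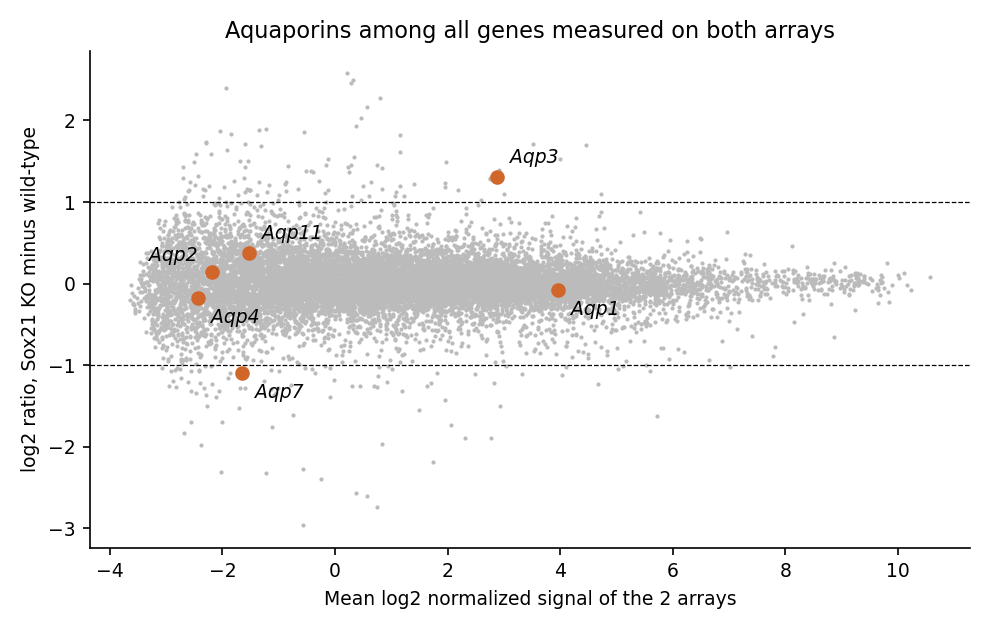
Log2 ratio (*Sox21* KO minus wild-type) against the mean log2 normalized signal of both arrays for the 13803 genes measured on both (grey), with the 6 measured aquaporins in orange and dashed lines at 2-fold. *Aqp3* stands above the upper line among bright genes, *Aqp7* just below the lower line among dim ones, and the other 4 lie between the lines.

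Across the family, 3 of the 6 measured genes were higher in *Sox21* KO (*Aqp2*, *Aqp3*, *Aqp11*) and 3 lower (*Aqp1*, *Aqp4*, *Aqp7*). Of all measured genes 7239 of 13803 were higher (52.4%). The median log2 ratio of the 6 was 0.04, beside 0.01 over all measured genes, of which 5% to 95% lay from −0.47 to 0.48. *Aqp3* and *Aqp7* lay outside that range and the other 4 inside it. *Aqp5* and *Aqp9* were surrogates at each of their probes, so a low level of either would not have been detectable, and *Aqp8* had a weak signal at 1 probe that was positive and significant on both arrays without being well above background.

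Among further family genes on the array, the lens channel *Mip* was well above background in wild-type only, at 99.7 against 5.53 in *Sox21* KO. Set against the lowest signal well above background on the KO array, this was at least 5.27-fold lower in *Sox21* KO, at a single dim spot. Of the 308 negative control spots, which have no target, 1 on the wild-type array read 147, above the wild-type spots of *Mip* and *Aqp7*, while the next highest read 27.0 and the highest on the KO array 22.3. *Aqp6* and *Aqp12* were well above background on neither array.

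Genes that handle what the channels carry were read from lists. Glycerol metabolism genes make or use the glycerol that aquaglyceroporins pass. Of 15, 13 were measured on both arrays, 8 higher and 5 lower in *Sox21* KO, beside 52.4% higher over all genes. Their median log2 ratio was 0.10 and none was past 2-fold. The lowest was *Gpd1*, glycerol-3-phosphate dehydrogenase, at −0.39, and the highest *Gpam*, which adds the first acyl chain in triglyceride synthesis, at 0.44. Glycerol kinase (*Gk*) and hormone-sensitive lipase (*Lipe*) were well above background on the KO array only.

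Genes of cell volume control and osmolyte uptake act on the water that the channels let through. Of 15, 14 were measured, 8 higher and 6 lower (52.4% higher over all genes), again with a median of 0.10 and none past 2-fold. The volume-regulated anion channel subunit *Lrrc8e* had the lowest log2 ratio, −0.46, and the myo-inositol transporter *Slc5a3* the highest, 0.49. The osmosensitive cation channel *Trpv4* read 0.34, and the cotransporter *Slc12a2*, which loads cells with chloride, 0.47. The osmolyte transporter *Slc6a12* was well above background on the KO array only. No gene of the 2 lists that was measured on both arrays reached 2-fold, which is near the shares over all genes (0.739% higher and 0.667% lower), and *Gk*, *Lipe* and *Slc6a12* have no ratio.

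Markers of the cell types in which each channel is known were read beside it. For *Aqp3*, genes of the suprabasal layers of skin and oral epithelium were higher together: 11 of 14 were measured, 11 of 11 were higher in *Sox21* KO, 8 of them at least 2-fold, with a median log2 ratio of 1.26, beside 52.4% higher and 0.739% at least 2-fold higher over all genes. Their summed normalized signal was 28.1 in wild-type and 54.8 in *Sox21* KO. Examples are *Spink5*, an inhibitor of skin proteases, at 2.03 and the keratin *Krt1* at 1.45. The probes of 2 other keratins disagreed in size: *Krt10*, the partner of *Krt1* in suprabasal filaments, was at 0.34 at its brighter probe and 1.84 at its dimmer one, and *Krt13* of oral mucosa at 0.56 and 1.94. *Flg* and *Krt4* were well above background on the KO array only and *Ivl* on neither. The study picked 8 of the 14 for its own list from these arrays, and the 3 others that were measured (*Krtdap*, *Sbsn* and *Lor*) were at 1.18, 0.34 and 1.15. Basal keratinocyte genes, each at its brightest probe, split evenly, 4 higher and 4 lower, with a median of 0.00. Their summed signals were 758 and 818, mostly from *Krt5* (425 and 504). *Lamb3*, a laminin chain that the study also picked, was at −1.07. The split depended on the probe taken: the 4 *Trp63* probes were at 0.22, 0.02, −0.41 and −0.68, those of *Dst* at −0.12 and −0.66, and those of *Krt5* at 0.25 and 0.59. Ameloblast genes, with a median of −0.62 as given above, differed in the direction opposite to the suprabasal genes. The part of these cell types in the *Aqp3* reading was not tested.

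For *Aqp7*, the fat cell markers were mostly near or below background. Only *Fabp4*, *Cd36* and *Pparg* of 8 were measured on both arrays, at 0.33, −0.16 and 0.36, with summed signals of 5.79 and 7.17. *Adipoq*, *Cfd* and *Lep*, which define fat cells, were well above background on neither array, *Plin1* was so on the KO array only and *Cidec* on the wild-type array only. For both *Aqp7* and *Aqp1*, 10 of 10 endothelial genes were measured, 7 higher and 3 lower, beside 52.4% higher over all genes. Their median was 0.11, with summed signals of 90.9 and 89.6. Erythroid genes, which bear on *Aqp1* as well, were lower in 5 of the 5 measured, beside 6564 of 13803 over all genes. Their median was −0.18, with summed signals of 245 and 201. The part of these cell types in the *Aqp7* and *Aqp1* readings was not tested.

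For *Aqp4*, skeletal muscle genes were lower in *Sox21* KO in 7 of 8 measured, beside 6564 of 13803 over all genes. Their median was −0.51, with summed signals of 70.0 and 50.5, and only the embryonic myosin *Myh3* was higher. Glial genes of the astrocyte and Schwann cell list had a median of −0.05 over 5 measured. For *Aqp9*, neutrophil genes were lower in 5 of 5 measured, beside 6564 of 13803 over all genes, with a median of −0.08. The lowest was *Mpo* at −0.56, read close to the floor (0.131 and 0.0890 normalized, where the lowest readings well above background were 0.0796 and 0.0706). The dimmer probe of *Camp* was higher (0.09), and *Ngp*, *Ltf* and *Cebpe* were well above background on neither array. The part of these cells in the aquaporin readings was not tested. Dividing each array by its median instead of its 75th percentile added 0.096 to every log2 ratio, so values and list medians less than that below 0, among them those of *Aqp1*, the glial genes and the neutrophil genes, turn positive under it.

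**Figure D4:**
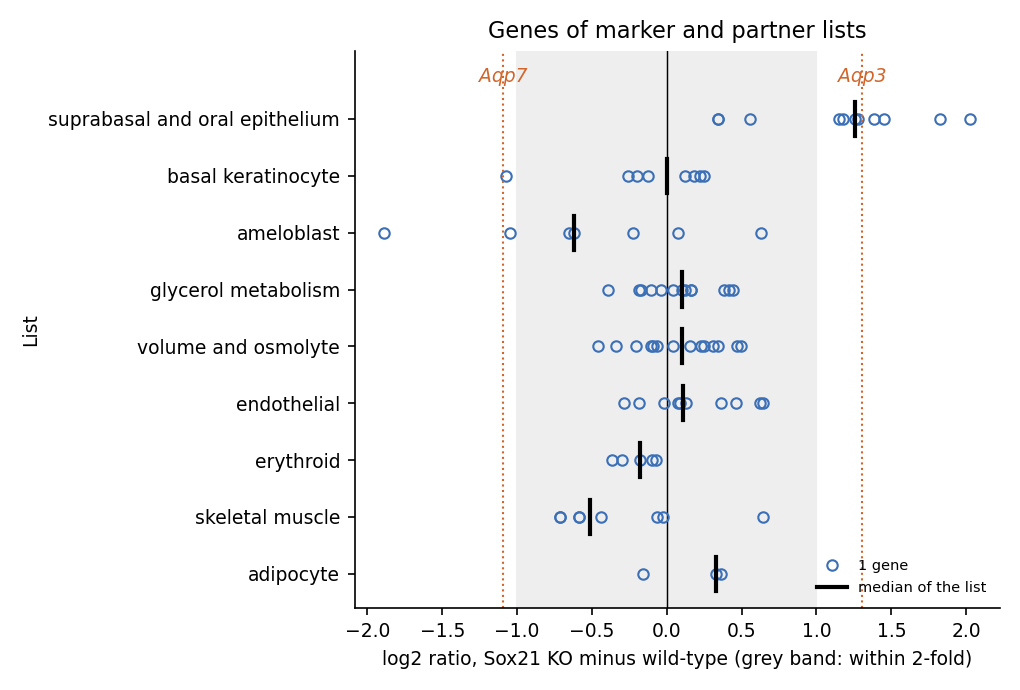
Log2 ratio (*Sox21* KO minus wild-type) of each measured gene in 9 lists of marker and partner genes, with the median of each list as a black bar, the 2-fold band in grey and the *Aqp3* and *Aqp7* values as dotted lines. In the suprabasal and oral epithelium list 8 of 11 genes lie right of the band, around *Aqp3*, and no gene of the glycerol, volume, endothelial, erythroid, muscle or adipocyte lists lies outside it.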

How the data were processed

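RNA from wild-type and *Sox21* KO incisor was labelled with Cy3 from 50 ng and hybridized to 1 array each. Per the labels, the authors extracted each array with Agilent Feature Extraction 10.7.3.1, and the deposited scanner files hold, per spot, the intensity with local background already subtracted (the processed signal), its error, flags, and a p-value against background, which was not used beyond the flags made from it. The authors' deposited ratio table equals the processed signal divided by 1 number per array (268 and 276), their percentile shift in GeneSpring. The aligner of the probes to mm9 is not given in the sources used here.

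Each array held 62976 spots, 59305 of them not controls. Signals were divided by the array's 75th percentile over all spots and taken to log2. Control spots and 267 spots with outlier flags were left out, and repeat spots were averaged, which gave 55679 probes. Probes were named through RefSeq accession (26298), symbol (2044) or older symbol (355) in a table of GRCm38.p6, and 26982 had no match and were not used. The brightest probe well above background on both arrays stood for a gene, and every aquaporin probe is shown. The genes named are every aquaporin, *Sox21* and genes of fixed lists; genes flanking the pair on chromosome 4 were added after the values were seen. The members and lists were chosen with earlier results of these data known. One of 10 erythroid genes had no name in the RefSeq table and was not used, and 1 further list is not reported here.

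The log2 ratio error was propagated from the scanner's error of each signal, and the 95% interval is 1.96 times it. The number of arrays, 1 per genotype, limits the precision. Alternatives were the 75th percentile over spots other than controls, the median, quantile normalization, normexp with an offset of 50 followed by quantile normalization in limma 3.58.1 (R 4.3.3), the deposited ratio table, other probe choices and other filters. Python 3.11.15, numpy 2.4.6 and pandas 2.3.3 were used, and the steps were tested on simulated data.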

Additional observations from a re-analysis of the deposited data

How the results depend on the processing

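No paired analysis was possible because each genotype has 1 array, and for the same reason no array could be left out. *Aqp3* was at least 2-fold higher under the 4 alternatives of scaling and background that could move its value, with log2 ratios from 1.25 to 1.40, and it stayed at 1.31 under the other 6 of 10, which were probe choices and filters that leave a gene with 1 unflagged probe as it is, and the deposited ratio table, which holds the same scaling. Dividing by the median moved the middle of all genes from 0.01 to 0.11, and under it *Aqp3* was at 1.40, *Sox21* at −0.99, the median of the measured aquaporins at 0.13, and the count of aquaporins at least 2-fold lower was 0, with *Aqp7* at −0.996. That count was also 0 under normexp with an offset of 50 followed by quantile normalization, with *Aqp7* at −0.59. Under the median every log2 ratio is raised by 0.096, which takes *Aqp7* from −1.09 to −0.996. How much of the normexp value came from the offset was not tested. Genes past 2-fold then numbered 135 higher and 63 lower under the median, 45 and 40 under normexp, 508 and 695 with no filter and 293 and 321 with the weaker filter, against 102 and 92, and at a 1.5-fold limit 441 and 412. With no filter the median of the aquaporins was −0.074, and with the weaker filter, which asks only for a positive and significant signal and adds *Aqp8* at 0.40, it was 0.14. *Sox21* was at −1.30 as the mean of its probes and at −1.51 at the dimmer one. *Aqp11* ran from 0.20 to 0.60. Signal over background limits the readings of *Aqp2*, *Aqp4*, *Aqp7* and *Aqp11*, whose spots are dim, and of *Aqp8*, whose brighter probe passed only the weaker filter, and leaves *Aqp5* and *Aqp9* without one.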
